A study of Mus musculus with 34 samples.

Results

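The genes described here are 37 genes of lipogenesis and cholesterol synthesis, taken by symbol from a list of enzymes and regulators. All 37 were found in each of 3 deposited tables, among 47049 distinct symbols in the series, and all 37 passed the filter on low values in each table. They fall into 16 genes of fatty acid and triglyceride synthesis (the fatty acid branch) and 21 genes of sterol synthesis and its feedback (the sterol branch). RNA was sequenced from 34 mouse libraries in 7 groups. All mice carried LAP-tta; TRE-MYC, which turns on MYC in hepatocytes and gives liver tumors once doxycycline is taken out of the drinking water. ARID1A is a DNA-binding subunit of BAF, the mammalian SWI/SNF remodeler. In a mixed background of C57/B6, 129 and FVB, 8 Het tumors (Arid1a fl/+ with Alb-cre, a Cre driven in hepatocytes) were set against 8 WT tumors (floxed Arid1a, no Cre), all from mice about 90 days old. In FVB, 4 Homo tumors (Arid1a fl/fl with Alb-cre, about 100 days) and 4 Het tumors (fl/+ with Alb-cre, about 70 days) were set against 4 WT tumors (floxed, no Cre, about 55 days). All tumors were taken at death, so in FVB the genotypes also differ in age, and WT mice of both strains lack Cre; age and Cre cannot be told apart from the Arid1a alleles. The third table holds FVB Rag1-/- mice with the MYC transgene and wild-type Arid1a, about 42 days old, whose livers were taken 14 days after adenovirus: 3 received human ARID1A (ad-ARID1A) and 3 received Cre (ad-Cre). Their tissue label says liver, while their source label says tumor.

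Fatty acid synthesis turns citrate into acetyl-CoA and malonyl-CoA, builds palmitate on fatty acid synthase, and elongates, desaturates and esterifies it to triglyceride. Sterol synthesis runs from acetyl-CoA through mevalonate, squalene and lanosterol to cholesterol. Both are switched on by the SREBP transcription factors, which SCAP carries out of the endoplasmic reticulum unless sterol-bound INSIG proteins hold them back; in liver the Srebf1 product is known mainly for fatty acid genes under insulin and the Srebf2 product mainly for sterol genes. SREBP binds sterol regulatory elements and usually acts beside NF-Y, which binds CCAAT boxes.

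Promoter sequence from RefSeq on build GRCm38.p6 was available here for 29 of the 37 genes. Scd1, Scd2, Fads1, Dgat2, Fdps, Fdft1, Sqle and Stard4 had no entry. Windows of 300 bases, 250 before and 50 after each annotated start, were searched on both strands for CCAAT (the NF-Y box), TCACNCCAC (the centre of a sterol regulatory element) and CACGTG (an E-box). The NF-Y box was present for 17 of 17 sterol genes (100%) and 9 of 12 fatty acid genes (75.0%), against 41.1% of the 27025 genes with a promoter entry. The strict sterol element matched in Hmgcs1 and Mlxipl, that is in 5.88% of sterol genes and 8.33% of fatty acid genes, against 1.44% of all genes. The E-box matched for Dhcr7, Hsd17b7, Sc5d and Insig1 (23.5% of sterol genes) and for Elovl5 and Mlxipl (16.7% of fatty acid genes), against 8.09% of all genes. Genes with several annotated starts were counted once if any window matched. The 250 bases before the start are shown for Hmgcs1, the sterol gene with the strict element. They are also shown for Insig1, Sc5d, Thrsp and Elovl5, which are among the genes described in detail below. They run 5′ to 3′ on the gene's strand, with every match on either strand in capitals, and no match overlaps another. An NF-Y box on the opposite strand reads ATTGG. For Thrsp and Insig1 the GENCODE gene model starts inside the stretch shown, and for Elovl5 it starts at the last base shown.
Hmgcs1 (chr13:119690101-119690350, + strand): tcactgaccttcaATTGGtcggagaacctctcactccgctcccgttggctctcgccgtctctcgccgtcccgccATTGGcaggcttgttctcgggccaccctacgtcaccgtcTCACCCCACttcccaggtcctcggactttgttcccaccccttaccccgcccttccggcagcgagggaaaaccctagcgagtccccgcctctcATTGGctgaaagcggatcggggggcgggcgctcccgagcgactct
Insig1 (chr5:28071162-28071411, + strand): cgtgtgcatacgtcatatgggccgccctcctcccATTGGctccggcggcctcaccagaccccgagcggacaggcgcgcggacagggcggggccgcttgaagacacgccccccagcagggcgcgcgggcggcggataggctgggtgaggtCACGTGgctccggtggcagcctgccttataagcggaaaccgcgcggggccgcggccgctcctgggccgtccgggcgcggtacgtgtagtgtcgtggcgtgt
Sc5d (chr9:42264301-42264550, - strand): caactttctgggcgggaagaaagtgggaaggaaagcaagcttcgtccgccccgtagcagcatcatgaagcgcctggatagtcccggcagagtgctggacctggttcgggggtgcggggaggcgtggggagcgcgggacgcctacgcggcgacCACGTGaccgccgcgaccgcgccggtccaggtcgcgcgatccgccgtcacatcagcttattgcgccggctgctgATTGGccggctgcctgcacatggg
Thrsp (chr7:97417551-97417800, - strand): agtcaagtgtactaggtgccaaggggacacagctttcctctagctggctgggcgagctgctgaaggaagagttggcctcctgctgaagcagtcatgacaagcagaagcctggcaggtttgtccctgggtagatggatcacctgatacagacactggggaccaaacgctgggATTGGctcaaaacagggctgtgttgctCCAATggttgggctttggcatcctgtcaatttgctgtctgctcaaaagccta
Elovl5 (chr9:77917115-77917364, + strand): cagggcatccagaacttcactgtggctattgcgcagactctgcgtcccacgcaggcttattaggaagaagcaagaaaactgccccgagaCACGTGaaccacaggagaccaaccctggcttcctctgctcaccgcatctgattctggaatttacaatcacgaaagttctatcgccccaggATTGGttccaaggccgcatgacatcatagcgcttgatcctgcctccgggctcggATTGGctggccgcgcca
In the stretch shown, Hmgcs1 carries 3 NF-Y boxes and the sterol element between the last pair of them. Its full window of 300 bases holds 4 NF-Y boxes. Thrsp carries 2 NF-Y boxes, Elovl5 carries 2 NF-Y boxes and 1 E-box, and Insig1 and Sc5d carry 1 NF-Y box and 1 E-box each. A match describes the letters only.

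The libraries held 2275 to 5277 kilo-reads (recovered from the values) in the mixed-strain table, 6631 to 12021 kilo-reads in FVB and 8717 to 10609.9 kilo-reads in the Rag1-/- table. Arid1a was at 249.7 to 329.8 CPM (a gene's reads scaled to its library's total) in mixed-strain Het tumors, against 314 to 490 in WT. In FVB it was at 172 to 256 CPM in Homo tumors and 185 to 292 CPM in Het tumors, against 212 to 311 CPM in WT tumors, so the RNA level overlapped between genotypes; which exons are deleted is not given in the labels. Mouse Arid1a was at 111 to 149 CPM with ad-ARID1A and 114 to 116 CPM with ad-Cre. A single gene, Gm26917, was at 73222 to 105728 CPM in FVB Homo, 76332 to 140479 CPM in Het and 78478 to 88906 CPM in WT tumors. It was at 20738 to 25180 CPM with ad-ARID1A and 24662 to 29126 CPM with ad-Cre. In mixed-strain tumors it was at 842 to 1332 CPM in Het and 837 to 1674 CPM in WT. The CPM of other genes depend on this share, and its part in differences between tables was not tested. The summed level of 8 hepatocyte markers was 2596 to 13180 CPM in tumors and 67104 to 82940 CPM in Rag1-/- livers. Of 6 adipocyte markers, Adipoq and Plin1 were at 0 in 14 of 16 mixed-strain tumors and Cfd and Lep in 15 of 16, and these 4 were not listed in the other tables. Fabp4 and Cidec, which other cells also express, were above 0 in all 16, at up to 56.7 and 26.5 CPM, and listed in the other tables. The 6 summed to 20.4 to 83.2 CPM in mixed-strain Het tumors, against 17.2 to 50.2 CPM in WT tumors. Fabp4 and Cidec summed to 13.5 to 32.4 CPM in FVB Homo and 13.4 to 36.3 CPM in FVB Het tumors, against 10.7 to 22.8 CPM in FVB WT tumors. T and B cell markers were listed only in the mixed-strain table. On the first principal components, mixed-strain WT 2 and Het 5 and FVB WT 1 and WT 2 stood apart from the other libraries of their tables.

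The tumors held mainly Scd2 and the Rag1-/- livers mainly Scd1, the paired stearoyl-CoA desaturases. Scd1 and Scd2 put the double bond into palmitate and stearate; Scd1 is the main form of adult mouse liver and Scd2 is known from embryonic and neonatal liver and from brain. In the GENCODE annotation of GRCm38 they are neighbours, Scd1 at chr19:44394455-44407879 on the - strand and Scd2 at chr19:44293674-44306864 on the + strand. Scd1 was at 44.6 to 769.7 CPM over the 28 tumors, against 4421, 10441 and 5914 CPM in ad-ARID1A livers and 7697, 9542 and 6208 CPM in ad-Cre livers. Scd2 was at 477 to 1447 CPM over the tumors, against 5.78, 16.3 and 10.5 CPM in ad-ARID1A livers and 13.8, 7.06 and 3.32 CPM in ad-Cre livers. No tumor overlapped a liver for either gene. Per kilobase of exon, Scd2 exceeded Scd1 in all 28 tumors, by 1.16 to 9.78 times (median 4.23). In all 6 livers Scd1 exceeded Scd2, by 621 to 2090 times. The ratio of Scd2 to Scd1 was 1.99 to 9.58 (median 2.88) in mixed-strain Het tumors and 1.16 to 4.82 (median 3.03) in mixed-strain WT tumors. In FVB it was 5.94 to 7.26 (median 6.53) in Homo, 4.82 to 8.70 (median 6.77) in Het and 1.92 to 9.78 (median 6.86) in WT tumors. The genotypes overlapped within each strain. This ratio lies within each library and does not depend on scaling between tables; how the authors counted reads that match both of these similar genes is not given here, so their split is uncertain.

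**Figure D1:**
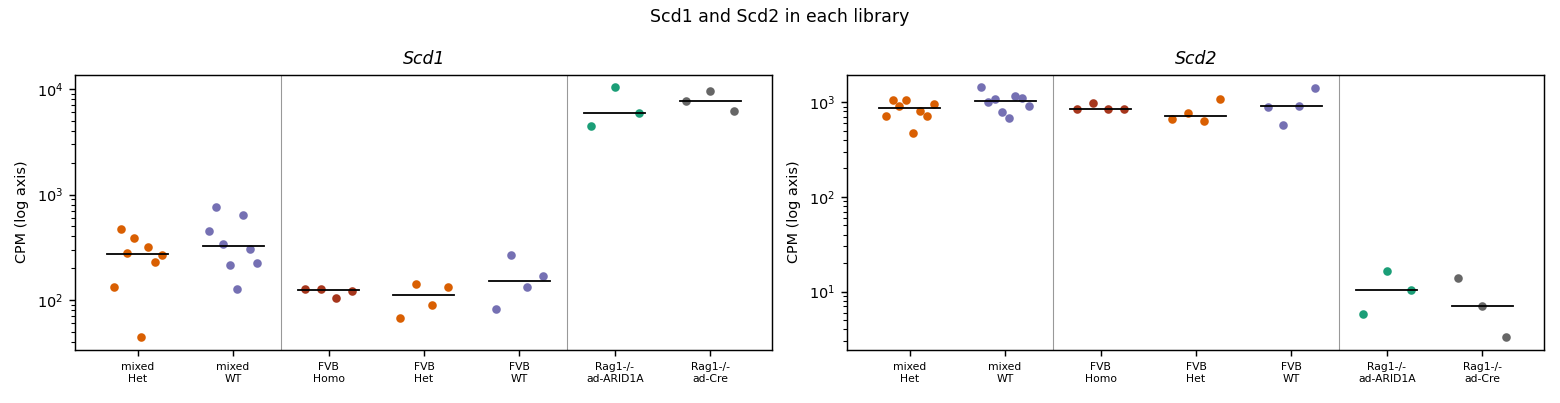
Scd1 (left) and Scd2 (right) in CPM on a log axis, 1 point per library and a line at each group's median. Scd2 sits between 477 and 1447 CPM in the 28 tumors and between 3.32 and 16.3 CPM in the 6 livers, and Scd1 runs the other way.

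Levels in tumors and livers come from tables that were normalized separately, from mice of other ages and hosts, so they are set side by side without a test. In 8 of 16 fatty acid genes and 3 of 21 sterol genes every tumor lay below every liver, against 4.96% of the 13016 genes in all 3 tables. Besides Scd1 these were Acacb (the acetyl-CoA carboxylase of the mitochondrial surface), Elovl5 (an elongase of polyunsaturated fatty acids), Fads1 and Fads2 (the polyunsaturated fatty acid desaturases), Me1 (malic enzyme, a source of NADPH), Thrsp (a nuclear and cytosolic protein induced with lipogenesis), Mlxipl (the glucose-responsive factor ChREBP), Msmo1 (a sterol demethylase), Sc5d (a sterol desaturase) and Insig2 (an SREBP anchor). Thrsp was at 1.19 to 139 CPM in tumors and 402 to 630.3 CPM in livers. Me1 was at 0.879 to 120.1 CPM in tumors and 181 to 309 CPM in livers. Elovl5 was at 50.2 to 173 CPM in tumors and 385 to 1082 CPM in livers, and Insig2 at 13.5 to 66.6 CPM in tumors and 176 to 333 CPM in livers. Every tumor lay above every liver in 1 fatty acid gene, Scd2, and 1 sterol gene, Srebf2, at 115 to 442 CPM in tumors and 69.6 to 89.3 CPM in livers; 34.7% of all genes did so. The core enzymes did not separate: Fasn was at 718 to 1686 CPM in tumors and 1053 to 2272 CPM in livers, Acaca at 244 to 675 and 380.0 to 600.5, and Acly at 209 to 525 and 331 to 635. Per kilobase, Scd2 led the 37 genes in every tumor group, followed by Fasn and Dgat2 (Acly rather than Dgat2 in FVB WT), while Scd1, Thrsp and Elovl5 led in both liver groups. Thrsp, second of 37 per kilobase in livers, was the lowest or next to lowest in Het and Homo tumors and stood at 33 in mixed-strain WT and 28 in FVB WT. The hepatocyte marker sums given above differed between tumors and livers as well, and their part was not tested; in bulk tissue, fewer cells of a type and less RNA per cell cannot be told apart.

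**Figure D2:**
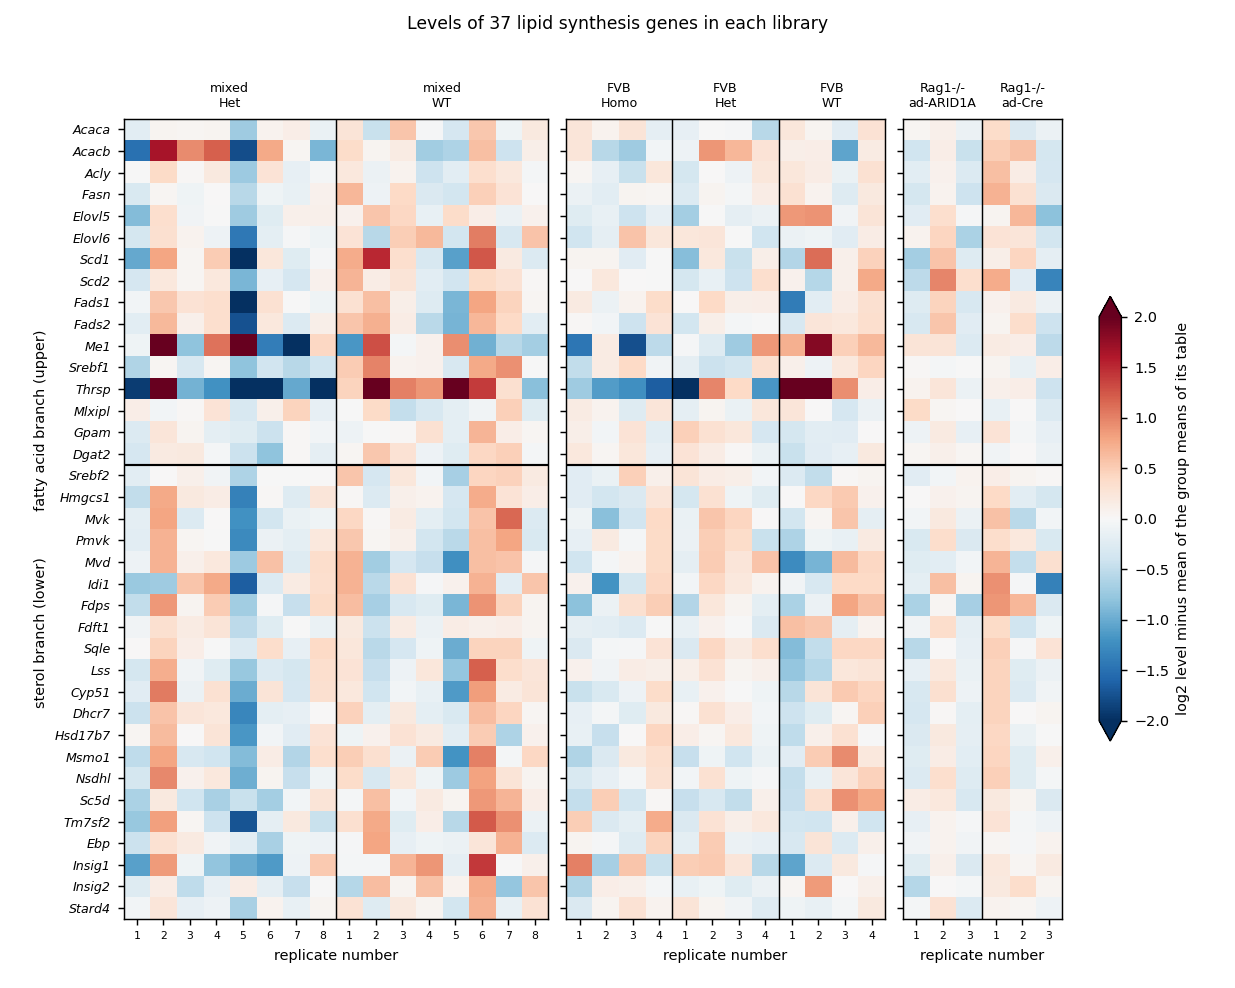
Log2 level of each of the 37 genes (rows, fatty acid branch above the line) in each library (columns, by group and replicate number), minus the mean of the group means of its table; the colours stop at 2 in either direction. Mixed-strain Het 5 is low and Het 2 and WT 6 are high across most of both branches, and Thrsp and Me1 vary most.

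Some mixed-strain tumors stood low or high across both branches. In Het 5, 1 of 16 fatty acid genes and 1 of 21 sterol genes lay above the table's mean, with median deviations of -0.77 and -0.87 on the log2 scale. In Het 2, 15 of 16 and 20 of 21 lay above it (medians 0.32 and 0.69), and in WT 6, 14 of 16 and 21 of 21 (0.57 and 0.70). WT 2, which stood apart on all genes, split by branch, with fatty acid genes at 0.46 and sterol genes at -0.26. In FVB, WT 1 was the library with the lowest sterol genes (3 of 21 above the mean, median -0.41) while its fatty acid genes were at 0.11. Among livers, ad-Cre 1 had 14 of 16 and 21 of 21 genes above the mean. Thrsp was the member with the largest spread among mixed-strain WT tumors (SD 1.51 log2 units) and FVB WT tumors (SD 1.33), and Me1 among mixed-strain Het tumors (SD 2.06) and FVB Homo tumors (SD 0.88). Gpam and Fasn (SD 0.21 each in mixed-strain Het) were among the steadiest.

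**Figure D3:**
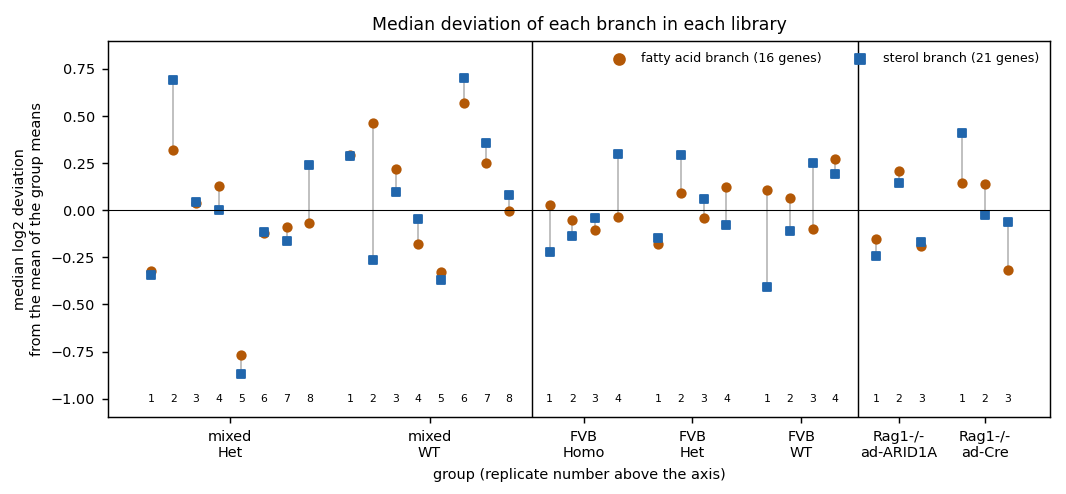
Median log2 deviation of the 16 fatty acid genes (circles) and the 21 sterol genes (squares) in each library from the mean of the group means of its table; a grey line joins the 2 values of a library. Mixed-strain Het 5 is lowest at -0.77 and -0.87, and the groups overlap in each table.

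Mixed-strain Het tumors had somewhat lower levels of most genes of both branches, and no gene of the 37 passed the test. Against WT, 13 of 16 fatty acid genes and 17 of 21 sterol genes were lower, with median log2 fold changes of -0.28 and -0.22. Over all genes tested 43.9% were lower and the median was 0.05. With limma, 0 of 37 had an adjusted p under 0.05, against 0.16% of all genes, and 5 had an unadjusted p under 0.05, all lower, against 2772 of 17552 genes. No gene of the 37 had groups that did not overlap, against 0.137% of all genes. The 95% interval lay within a 2-fold change for 28 of the 37, 10 fatty acid and 18 sterol genes.

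Of the regulators, Srebf1 (chr11:60199089-60222581, - strand), the gene of SREBP-1, was at 148 CPM in the lowest, a median of 198 and 266 in the highest Het tumor, against 207, 324 and 515 CPM in WT tumors. The ranges overlapped between 207 and 266 CPM, and the log2 fold change was -0.75 ± 0.18 (SE; limma adjusted p = 0.104, the smallest of the 37). Thrsp was at 1.23, 3.34 and 64.3 CPM (lowest, median, highest) in Het tumors, against 5.63, 20.6 and 139 CPM in WT tumors. All Het tumors but Het 2 lay below the lowest WT tumor, and the log2 fold change was -2.53 ± 0.72 (limma adjusted p = 0.138). Without Het 2 it was -3.08 with a limma adjusted p of 0.0203, the only leave-out that brought a gene of the 37 past the threshold. Insig1, the SREBP-induced anchor, was at 75.1, 124 and 297 CPM in Het tumors, against 146, 169.8 and 439 CPM in WT tumors. 4 Het tumors lay below all WT tumors (-0.70 ± 0.30, limma adjusted p = 0.274). Srebf2 (-0.20 ± 0.16), Insig2 (-0.32 ± 0.21) and Mlxipl (0.11 ± 0.14) had 95% intervals that include 0.

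Among the enzymes of the fatty acid branch, Dgat2, which makes triglyceride in the last step, was at 183, 295 and 364 CPM in Het tumors, against 269.6, 359 and 464 CPM in WT tumors (-0.35 ± 0.15, limma adjusted p = 0.274, or -0.22 with array weights). Fasn (-0.27 ± 0.14), Elovl5 (-0.34 ± 0.16), Elovl6, the palmitate elongase (-0.45 ± 0.25), Scd2 (-0.30 ± 0.16) and Gpam (-0.22 ± 0.12) pointed the same way. Each had groups that overlapped and a 95% interval that includes 0. Acly (-0.01 ± 0.14) and Acaca (-0.17 ± 0.15) were close to equal, with 95% intervals of -0.31 to 0.29 and -0.49 to 0.15. Me1 was at 0.879, 16.1 and 120.1 CPM in Het tumors, against 6.06, 11.7 and 35.3 CPM in WT tumors, so that the highest and the lowest tumor were both Het. Acacb likewise spanned 13.3 to 148 CPM in Het tumors, against 28.7 to 71.5 CPM in WT tumors. The fold changes of Scd1 (-0.58 ± 0.43), Fads1 (-0.28 ± 0.35) and Fads2 (-0.20 ± 0.30) had 95% intervals that include 0.

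In the sterol branch, Sc5d was at 66.6, 79.7 and 128 CPM in Het tumors, against 103, 119.7 and 197 CPM in WT tumors. 5 of 8 Het tumors lay below all WT tumors (-0.61 ± 0.18, limma adjusted p = 0.148). Tm7sf2, a sterol reductase whose exons overlap those of Vps51, was at 5.92, 16.8 and 37.1 CPM in Het tumors, against 13.9, 24.4 and 49.2 CPM in WT tumors (-0.62 ± 0.32, limma adjusted p = 0.353). It was at -0.35 without WT 2 and Het 5. The mevalonate steps (Hmgcs1 -0.18 ± 0.23, Mvk -0.38 ± 0.25, Pmvk -0.22 ± 0.24, Mvd 0.22 ± 0.27) and squalene steps (Fdft1 -0.06 ± 0.12, Sqle 0.22 ± 0.19, Lss -0.24 ± 0.24) did not share a direction. Idi1 was at -0.39 ± 0.29 and Fdps at 0.03 ± 0.29. The steps after lanosterol were at 0.07 ± 0.26 for Cyp51 and -0.35 ± 0.28 for Msmo1, which remove methyl groups, -0.14 ± 0.24 for Nsdhl and -0.06 ± 0.21 for Hsd17b7, their dehydrogenase and ketoreductase partners, -0.26 ± 0.17 for Ebp, the sterol isomerase, and -0.26 ± 0.21 for Dhcr7. Stard4, a sterol carrier, was at -0.19 ± 0.15. The sterol median was -0.11 without Het 5 and -0.13 with array weights, and the fatty acid median -0.17 without WT 2 and Het 5. Lower hepatocyte markers accompanied these values, 8 of 8 lower, with summed levels of 2596 to 5962 CPM in Het tumors, against 4993 to 11179 CPM in WT tumors. Macrophage markers summed to 131 to 297 CPM in Het tumors, against 173 to 716 CPM in WT tumors, with 5 of 6 lower. Of the 6, 1 passed the limma test, against 0.16% of all genes, of which 43.9% were lower. Stellate cell and fibroblast markers summed to 117 to 492 CPM in Het tumors, against 113 to 675 CPM in WT tumors (5 of 6 lower). Neutrophil markers summed to 5.50 to 28.1 CPM, against 8.46 to 101 CPM (4 of 4 tested lower). Erythroid markers were at 4.73 to 251 CPM, against 11.5 to 271 CPM (4 of 4 lower), and endothelial markers at 98.4 to 287 CPM, against 133 to 369 CPM (3 of 5 lower). Not every cell type was lower. Biliary markers were at 3.76 to 469 CPM, against 5.67 to 93.6 CPM (3 of 4 higher). T cell markers were at 1.14 to 9.33 CPM, against 0.751 to 5.80 CPM (3 of 4 higher). For B cells, 1 of 2 tested markers was lower. The part of these cell types in the result was not tested.

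**Figure D4:**
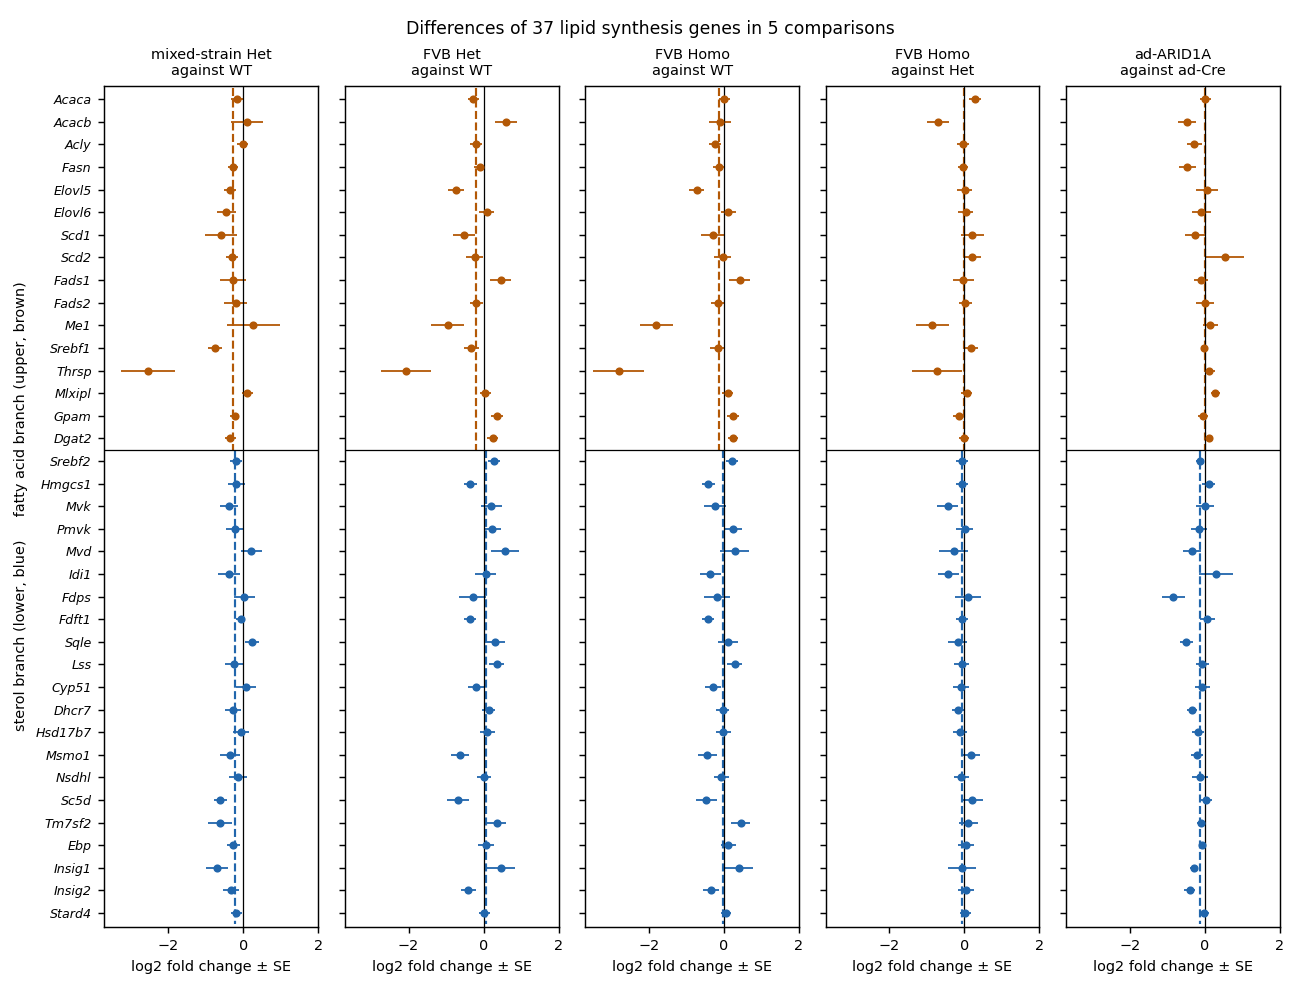
Log2 fold change ± SE of each gene in the 5 comparisons, fatty acid branch in brown above the line and sterol branch in blue below it; dashed lines are branch medians. Thrsp lies lowest in the mixed-strain and both FVB comparisons with WT at -2.53, -2.07 and -2.81, and near 0 in livers at 0.13, and no gene passed the test in any comparison.

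In FVB tumors the lowest fold changes of both Alb-cre groups against WT belonged to 3 fatty acid genes, Thrsp, Me1 and Elovl5, none of which passed the test, and the sterol medians lay near 0. The same 4 WT tumors serve both comparisons, so their values are not independent. Homo tumors had 10 of 16 fatty acid genes lower than WT (median -0.12, or -0.04 without WT 4 or with libraries centred) and 12 of 21 sterol genes (median -0.03, or 0.05 with libraries centred on their median, 0.12 with array weights and -0.32 without WT 1 and WT 2), against 52.9% lower and a median of -0.02 over all genes. Het tumors had 10 of 16 fatty acid genes (median -0.19, or -0.09 without WT 4) and 7 of 21 sterol genes lower (median 0.07, or 0.25 with array weights and -0.16 without WT 1 and WT 2), against 46.9% and 0.02 over all genes. With limma 0 of 37 passed in Homo against WT, where 0.0434% of all genes did, and 0 of 37 in Het against WT, where 0.0248% did. Unadjusted p-values under 0.05 were found for 5 genes in Homo against WT, all lower (1617 of 16140 genes tested), and 7 in Het against WT, 6 of them lower (2293 of 16140). Groups did not overlap for Thrsp, Me1 and Elovl5, all lower, in Homo against WT (4.07% of all genes) and for Insig2, lower, in Het against WT (6.88% of all genes).

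Thrsp was at 2.89, 2.19, 2.01 and 1.51 CPM in Homo tumors and at 1.19, 9.32, 6.23 and 2.11 CPM in Het tumors, against 25.1, 38.9, 9.06 and 5.17 CPM in WT tumors. Every Homo tumor lay below every WT tumor and 2 of the 4 Het tumors lay within the WT range. The log2 fold change was -2.81 ± 0.67 in Homo (limma adjusted p = 0.172) and -2.07 ± 0.67 in Het (limma adjusted p = 0.185). Me1 was at 5.78, 17.6, 4.63 and 10.9 CPM in Homo tumors and 15.5, 13.1, 9.58 and 28.4 CPM in Het tumors, against 25.6, 56.1, 21.9 and 24.4 CPM in WT tumors. Every Homo tumor lay below every WT tumor, and 1 Het tumor lay within the WT range. The log2 fold change was -1.81 ± 0.44 in Homo (limma adjusted p = 0.172) and -0.95 ± 0.44 in Het (limma adjusted p = 0.347). Elovl5 was at 67.6, 72.5, 60.1 and 71.5 CPM in Homo tumors and 50.2, 79.3, 70.5 and 73.5 CPM in Het tumors, against 146, 149, 76.1 and 95.7 CPM in WT tumors. The 2 highest values were WT 1 and WT 2, the libraries that stood apart, and the other WT tumors lay close to the mutant ones. The log2 fold change was -0.73 ± 0.21 in Homo (limma adjusted p = 0.246) and -0.73 ± 0.21 in Het (limma adjusted p = 0.139). Without WT 1 and WT 2, Elovl5 was at -0.33 in Homo and -0.34 in Het, Thrsp at -1.71 and -0.98, and Fdft1 at -0.11 and -0.04.

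**Figure D5:**
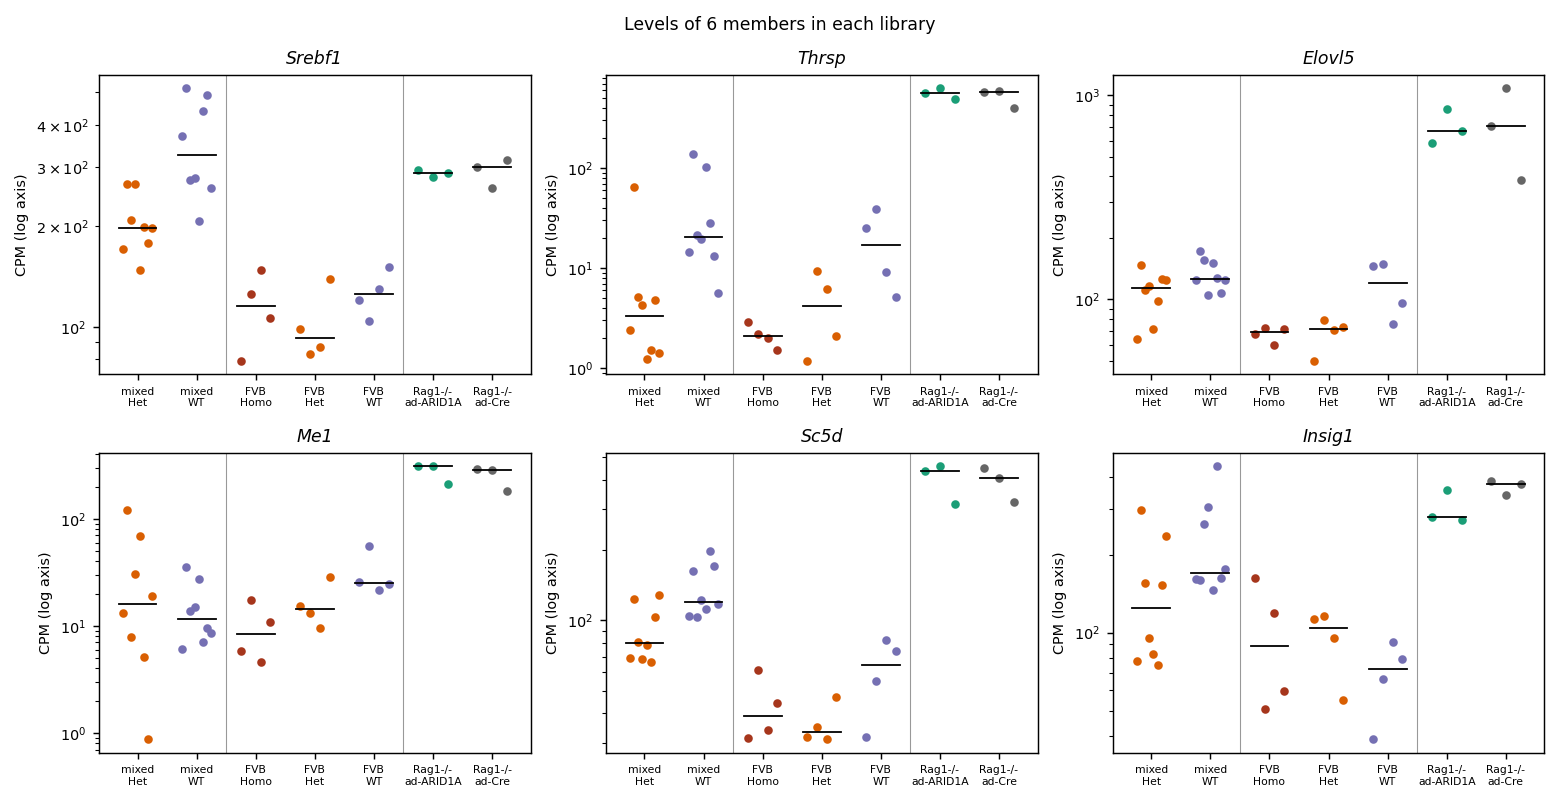
CPM on a log axis of Srebf1, Thrsp, Elovl5, Me1, Sc5d and Insig1, 1 point per library and a line at each group's median. Thrsp, Elovl5 and Me1 do not overlap between FVB Homo and FVB WT tumors, the other genes do, and ad-ARID1A and ad-Cre livers overlap for all 6.

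Other FVB differences were smaller. Fdft1, squalene synthase, was at 141, 137, 132 and 159 CPM in Homo tumors and 143, 169, 158 and 129.8 CPM in Het tumors, against 242, 232, 141 and 167 CPM in WT tumors (-0.43 ± 0.16 in Homo, limma adjusted p = 0.388, and -0.36 ± 0.16 in Het, limma adjusted p = 0.333). Its exons overlap those of Ctsb on the opposite strand by 774 bases. Elovl6, Srebf1, Me1, Mlxipl, Hmgcs1, Idi1, Lss and Cyp51 also share exon bases with a gene on the opposite strand, and whether strand was used in counting is not given, so small differences of these genes are uncertain. Hmgcs1, which makes HMG-CoA, was at 135, 122, 129 and 187 CPM in Homo tumors, against 159, 209, 228 and 167 CPM in WT tumors (-0.41 ± 0.17, limma adjusted p = 0.442). The lowest 3 values were Homo and the highest 2 were WT. Msmo1 was at 19.4, 24.1, 33.8 and 37 CPM in Homo tumors and 21.4, 27.7, 22.3 and 26.7 CPM in Het tumors, against 25.1, 41.6, 56.5 and 34.1 CPM in WT tumors. The log2 fold change was -0.44 ± 0.25 in Homo (limma adjusted p = 0.586, and -0.25 without WT 3 or -0.27 without Homo 1) and -0.63 ± 0.25 in Het (limma adjusted p = 0.267). Sc5d was at 31.8, 35, 31.1 and 46.9 CPM in Het tumors, against 31.8, 54.9, 82.7 and 74 CPM in WT tumors, where WT 1 was as low as the Het tumors (-0.68 ± 0.28, limma adjusted p = 0.291, and -1.13 without WT 1 and WT 2). Gpam, which starts glycerolipid synthesis, was the single gene higher at an unadjusted p under 0.05, at 290.0, 259.6, 244 and 165 CPM in Het tumors, against 163, 181, 179 and 209 CPM in WT tumors (0.36 ± 0.16, limma adjusted p = 0.325). Insig2 was at 18.4, 19.2, 17.3 and 18.9 CPM in Het tumors, against 21, 37, 20.5 and 22 CPM in WT tumors (-0.40 ± 0.21, limma adjusted p = 0.417, or -0.20 without WT 2). Insig1 was at 162, 50.6, 119 and 59.3 CPM in Homo tumors and 113, 116, 95.7 and 54.9 CPM in Het tumors, against 38.9, 66.3, 91.8 and 78.8 CPM in WT tumors. Its groups overlapped widely (0.41 ± 0.37 in Homo and 0.47 ± 0.37 in Het), and its sign was opposite to that in mixed-strain tumors; the difference between strains was not tested. Fads1 (0.42 ± 0.28 in Homo and 0.45 ± 0.28 in Het), Tm7sf2 (0.45 ± 0.25 and 0.35 ± 0.25) and Mvd, the mevalonate diphosphate decarboxylase (0.28 ± 0.38 and 0.57 ± 0.38), had positive values and intervals that include 0. Srebf1 did not stand out in FVB, at -0.16 ± 0.20 in Homo and -0.33 ± 0.20 in Het, nor did Fasn (-0.14 ± 0.14 and -0.10 ± 0.14). The 95% interval lay within a 2-fold change for 30 of 37 genes in Homo and 26 of 37 in Het.

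Between Homo and Het tumors of FVB, 8 of 16 fatty acid genes (median 0.00) and 13 of 21 sterol genes (median -0.07) were lower in Homo, against 58.1% of all genes and a median of -0.04. 0 of 37 passed with limma, where 0% of all genes did, and 1 gene had an unadjusted p under 0.05, against 623 of 16140 genes tested. That gene was Acacb, at 49.2, 28.4, 25.3 and 39.9 CPM in Homo tumors, against 38.9, 76.6, 66.3 and 50.2 CPM in Het tumors (-0.70 ± 0.30, limma adjusted p = 1). The Homo and Het ranges overlapped between 38.9 and 49.2 CPM. Next by p in the fatty acid branch were Me1 (-0.85 ± 0.44) and Acaca, the cytosolic acetyl-CoA carboxylase, at 422, 375, 428 and 315 CPM in Homo tumors, against 319.6, 355, 349.7 and 244 CPM in Het tumors (0.28 ± 0.15). In the sterol branch they were Mvk, mevalonate kinase, at 10.2, 6.11, 8.34 and 14.2 CPM in Homo tumors, against 9.85, 15.9, 14.6 and 10.9 CPM in Het tumors (-0.44 ± 0.28). Idi1, the isopentenyl diphosphate isomerase, was at 144, 59.3, 106 and 179.8 CPM in Homo tumors, against 131, 179.8, 158 and 142 CPM in Het tumors (-0.42 ± 0.28). Homo 2 was the lowest library for both, and without it Mvk was at -0.24 and Idi1 at -0.11; Me1 was at -0.36 and Acaca at 0.15 with array weights. Dhcr7 was at 105, 115, 99.0 and 134 CPM in Homo tumors, against 119.4, 145, 129 and 113 CPM in Het tumors (-0.16 ± 0.17, or -0.10 without Het 2 and -0.25 without Homo 4). All of these had a limma adjusted p of 1. No gene of the 37 had groups that did not overlap, against 2.67% of all genes. The 95% interval lay within a 2-fold change for 31 of 37.

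Stellate cell and fibroblast markers summed to 79.8 to 353 CPM in Homo and 243 to 344 CPM in Het tumors, against 246 to 372 CPM in WT tumors, with 6 of 6 markers lower in Homo and 5 of 6 in Het. In Het 1 of the 6 was lower past the limma test (adjusted p = 0.0234), against 0.0248% of all genes, and in Homo 0 passed. Groups did not overlap for 3 of them in Het and 2 in Homo, all lower, against 6.88% and 4.07% of all genes. Endothelial markers summed to 72.4 to 149 CPM in Homo and 76.0 to 134 CPM in Het, against 100.2 to 227 CPM in WT, with 4 of 5 lower in each. Macrophage and Kupffer cell markers summed to 88.8 to 123 CPM in Homo and 90.9 to 125 CPM in Het, against 103.5 to 197 CPM in WT, with 5 of 6 lower in Homo and 4 of 6 in Het, and 2 in each with an unadjusted p under 0.05. Hepatocyte markers overlapped, at 6945 to 11989 CPM in Homo and 4527 to 9822 CPM in Het, against 6894 to 13180 CPM in WT. Erythroid markers summed to 20.9 to 73.5 CPM in Homo and 17.2 to 21.5 CPM in Het, against 15.9 to 369.6 CPM in WT, with 4 of 4 lower in each. Neutrophil markers summed to 1.80 to 95.3 CPM in Homo and 0 to 1.19 CPM in Het, against 2.53 to 59.5 CPM in WT. Their part in the result was not tested.

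In Rag1-/- livers, several sterol genes were lower with ad-ARID1A than with ad-Cre while the fatty acid branch was centred on 0, and no gene passed the test. Of 21 sterol genes 16 were lower (median -0.13) and of 16 fatty acid genes 8 (median 0.00, or -0.16 without ad-Cre 3 and 0.08 without ad-ARID1A 3), against 33.7% lower and a median of 0.09 over all genes. Centring each library on its median moved the median of all genes by -0.10 and put the sterol median at -0.23 and the fatty acid median at -0.11. With limma 0 of 37 passed, against 0.32% of all genes, and 6 had an unadjusted p under 0.05, 5 sterol genes lower and Mlxipl higher, against 1759 of 14074 genes. Groups did not overlap for Dgat2, higher, and Insig2, lower, against 17.4% of all genes. The 95% interval lay within a 2-fold change for 33 of 37.

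Sqle, squalene epoxidase, was at 53.4, 78.8 and 70.0 CPM with ad-ARID1A, against 109.9, 77.7 and 95 CPM with ad-Cre (-0.49 ± 0.16, limma adjusted p = 0.267). The highest ad-ARID1A library lay just above the lowest ad-Cre library. Fdps, which makes farnesyl diphosphate and shares exon bases with Gm43738 on its strand, was at 14.8, 23.8 and 14.5 CPM with ad-ARID1A, against 42.2, 36.5 and 18.8 CPM with ad-Cre (-0.83 ± 0.30, limma adjusted p = 0.299). Here too 1 ad-ARID1A library lay inside the ad-Cre range. Insig2 was at 176, 261 and 252 CPM with ad-ARID1A, against 298, 333 and 271 CPM with ad-Cre (-0.40 ± 0.15, limma adjusted p = 0.307). It was at -0.22 without ad-ARID1A 1. Insig1 was at 280.1, 355 and 272 CPM with ad-ARID1A, against 385, 340.1 and 375 CPM with ad-Cre (-0.29 ± 0.11, limma adjusted p = 0.335), and Dhcr7, a reductase at the end of the pathway, was at 105, 135 and 116 CPM, against 179.8, 133 and 138 CPM (-0.33 ± 0.13, limma adjusted p = 0.348). For Insig1 and for Dhcr7, 1 ad-ARID1A library lay inside the ad-Cre range. All 21 sterol genes lay above the table's mean in ad-Cre 1, and the sterol median was -0.03 without that library, -0.04 without ad-ARID1A 1 and -0.24 without ad-ARID1A 2.

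In the fatty acid branch of the livers, Mlxipl was at 549, 431 and 422 CPM with ad-ARID1A, against 377, 422 and 347 CPM with ad-Cre (0.28 ± 0.12, limma adjusted p = 0.375), and at 0.16 without ad-ARID1A 1 and 0.18 with libraries centred. Fasn was at 1098, 1479 and 1053 CPM with ad-ARID1A, against 2272, 1734 and 1144 CPM with ad-Cre (-0.47 ± 0.23, limma adjusted p = 0.438). It was at -0.24 without ad-Cre 1 and -0.73 without ad-Cre 3. Acacb was at 167, 241 and 161 CPM with ad-ARID1A, against 309, 329 and 171 CPM with ad-Cre (-0.48 ± 0.24, limma adjusted p = 0.447, or -0.30 without ad-Cre 2 and -0.77 without ad-Cre 3). Srebf1 (-0.02 ± 0.09), Thrsp (0.13 ± 0.15) and Elovl5 (0.06 ± 0.31) differed by less than their standard errors here. In tumors against WT, Srebf1 was among the 3 fatty acid genes with the smallest p only in mixed-strain and Elovl5 only in FVB. Thrsp was among them in both, and none of these genes passed the test. Scd2 (0.54 ± 0.50) and Idi1 (0.31 ± 0.45) had the highest fold changes and the widest errors. Idi1 was at 201, 349.7 and 239 CPM with ad-ARID1A, against 434, 226 and 89.9 CPM with ad-Cre, so that both extremes were ad-Cre. Dgat2 was at 399, 419 and 402 CPM with ad-ARID1A, against 372, 391 and 359.5 CPM with ad-Cre (0.12 ± 0.08, limma adjusted p = 0.571, or 0.02 with libraries centred). Hepatocyte markers summed to 67104 to 77098 CPM with ad-ARID1A, against 76004 to 82940 CPM with ad-Cre, with 7 of 8 lower. Stellate cell and fibroblast markers summed to 349 to 379.6 CPM, against 225 to 363 CPM (6 of 6 higher), and endothelial markers to 316 to 345 CPM, against 273 to 316 CPM (5 of 5 higher). The adipocyte markers listed, Fabp4 and Cidec, summed to 12.3 to 16.3 CPM with ad-ARID1A, against 5.94 to 9.09 CPM with ad-Cre. Both were higher (median log2 fold change 0.94, 1 with an unadjusted p under 0.05 and 0 past the limma test). The sums did not overlap, but singly the groups did not overlap for 1 of the 2 markers, against 17.4% of all genes. Over all genes, 9297 of 14074 were higher with ad-ARID1A. The part of these cell types in the result was not tested.

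Set side by side, the branches had medians of -0.28 (fatty acid) and -0.22 (sterol) in mixed-strain Het against WT, -0.12 and -0.03 in FVB Homo against WT, -0.19 and 0.07 in FVB Het against WT, and 0.00 and -0.13 in ad-ARID1A against ad-Cre. The lowest gene was Thrsp of the fatty acid branch in all comparisons with WT, and Fdps of the sterol branch in livers. The difference between branches was not tested. Genes of the same pathways outside the 37 gave the same count of passes. Of 22 or 23 measured fatty acid genes (among them Acss2, G6pdx and Dgat1) and 19 sterol genes (among them Ggps1, Soat2 and Scap), 0 passed in any comparison with limma. Over all genes 0% to 0.32% passed, depending on the comparison. Unadjusted p-values under 0.05 were found for 4 and 6 of them in mixed-strain Het against WT, 2 and 2 in FVB Homo against WT, 3 and 4 in FVB Het against WT, 1 and 0 in FVB Homo against Het, and 4 and 2 in ad-ARID1A against ad-Cre. Over all genes the counts were, in the same order, 2772 of 17552, 1617 of 16140, 2293 of 16140, 623 of 16140 and 1759 of 14074. Their medians were -0.21 and -0.12 in mixed-strain Het against WT (17 of 22 and 11 of 19 lower), 0.00 and 0.06 in FVB Homo against WT (11 of 22 and 7 of 19 lower), -0.12 and 0.05 in FVB Het against WT (13 of 22 and 8 of 19 lower), 0.01 and -0.04 in FVB Homo against Het, and 0.01 and 0.02 in ad-ARID1A against ad-Cre (11 of 23 and 7 of 19 lower). A few of these genes, named after their values were seen, came closest to the threshold. Ggps1, which makes the geranylgeranyl diphosphate used for protein prenylation, was at 0.76 ± 0.17 in mixed-strain Het against WT (limma adjusted p = 0.0798), and Scap, the SREBP escort, at -0.58 ± 0.15 (limma adjusted p = 0.121). Soat2, which esterifies cholesterol, was at 0.68 ± 0.17 in FVB Homo against WT (limma adjusted p = 0.189) and 0.62 ± 0.17 in FVB Het against WT (limma adjusted p = 0.138). Elovl3, an elongase of saturated fatty acids, was at -0.87 ± 0.21 in ad-ARID1A against ad-Cre (limma adjusted p = 0.15).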

How the data were processed

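Per the labels' protocols, Trizol and miRNeasy extraction of frozen tissue was followed by Nugen library preparation. Per the submitters' processing notes, the tools were HISAT2 and featureCounts on GRCm38 (mm10), with Trim Galore and SAMtools, all without versions; no source used here gives the strand setting or the handling of shared reads. The authors deposited log2 values in 3 tables. Those of FVB tumors and Rag1-/- livers are log2 CPM, listed at 0 at or below 1 CPM. The mixed-strain table is named RPKM by the authors, but its deposited log2 values behave as log2(CPM + 1) and were used so; a planned test on log2(RPKM + 0.5) was therefore run on log2(CPM + 0.5). Depth was recovered from the steps of low values, 100% of which were whole within 0.1 reads. Counting precision limits the low genes, above all Thrsp, Fdps and Me1 in tumors.

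Each table was fitted alone with limma 3.58.1 in R 4.3.3 (lmFit, eBayes with a variance trend) on genes with a mean CPM of at least 0.5 (mixed-strain) or a mean log2 CPM of at least 0 (others), with the 3 FVB groups in 1 fit; p-values are two-sided and adjusted by Benjamini-Hochberg over all genes of a table. Fold changes near the floor are understated. The script was tested on simulated data. Groups do not overlap when every library of one lies above every library of the other. The 3 ad-ARID1A columns were matched to samples by number, since the labels give them names of ad-Cre columns. The labels do not say that each sample is a separate mouse, so p-values measure the spread between samples, which may be technical, and no batch is given. Lengths are unions of GENCODE exons on GRCm38. The members and all lists were chosen with earlier results of these data known. Genes given in full are, in each comparison, any member that passed (at most 10) and the 3 members of each branch with the smallest p, and members whose groups did not overlap. Alternatives were other pseudocounts, filters and scalings, array weights, a replicate block, and leaving out libraries. Some genes of the wider pathway lists are counted but not reported here by name.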

Additional observations from a re-analysis of the deposited data

Results flagged for a closer look

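Each of 53 sets of 4 to 10 libraries was searched for a library far from the rest. The sets held the values of the 3 genes per branch with the smallest p in a comparison, or the branch medians of a tumor group. A library was flagged in 2 of the sets, both of single genes, and chance gives about 1 in 20. Thrsp was at 64.3 CPM in mixed-strain Het 2, against 1.23 to 5.19 CPM in the other 7 Het tumors. In the same library 15 of 16 fatty acid genes and 20 of 21 sterol genes lay above the mean of the table. Me1 was at 56.1 CPM in FVB WT 2, against 21.9 to 25.6 CPM in the other 3 WT tumors, and this library is one of the pair that stood apart on all genes.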

How the results depend on the processing

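No gene chosen for full reporting by the rule above changed sign in its comparison under any alternative. The sign of other genes was not followed, among them Insig1 and Dhcr7 in livers and Me1 in FVB Het against WT. Branch medians near 0 did change sign, in FVB and in livers (fatty acid branch). In mixed-strain Het against WT, 28 genes passed; the number was 14 with no filter, 16 without WT 2 and Het 5, 101 with array weights and 75 with the replicate block, and 8 to 138 leaving out single libraries. Of the 37, 1 (Thrsp, limma adjusted p = 0.0468) passed with the replicate block and 0 to 1 leaving out single libraries. In FVB Het against WT, 4 passed, all lower; the number was 0 on log2(CPM + 1), 0 at a mean log2 CPM of at least 2, 21 (13 higher, 8 lower) rescaled without Gm26917, 1 with only the 2 groups, 1 without WT 1 and WT 2, 7 with libraries centred, 2287 with array weights, 0 with the replicate block and 0 to 256 leaving out single libraries; of the 37, 8 passed with array weights (Elovl5, Me1, Thrsp, Gpam, Srebf2, Mvd, Fdft1 and Lss) and 0 otherwise. In FVB Homo against WT, 7 passed; the number was 3 on log2(CPM + 1), 0 at a mean log2 CPM of at least 2, 0 with only the 2 groups, 3 without WT 1 and WT 2, 21 with array weights, 1 with the replicate block and 0 to 36 leaving out single libraries, and the sterol median was -0.32 without WT 1 and WT 2. In Homo against Het, 0 passed and 0 to 3 leaving out single libraries. In ad-ARID1A against ad-Cre, 45 passed (39 higher, 6 lower; 25 and 10 with libraries centred), and 0 to 19 leaving out single libraries. Fewer samples or genes enter some of these; otherwise the cause was not tested. The labels do not say that replicate numbers pair samples. Same-numbered deviations correlated at -0.12 to 0.24 in mixed-strain (different numbers -0.29 to 0.31) and -0.20 to 0.09 in FVB Homo and Het (-0.25 to 0.21). They were at -0.08 to 0.15 in Homo and WT (-0.18 to 0.24) and -0.06 to 0.05 in livers (-0.06 to 0.05). In FVB Het and WT they were at -0.02 to 0.28 (median 0.10), against -0.26 to 0.12 (median -0.02) for different numbers. Whether numbers pair samples there was not tested, and the block fits share only a number. At these depths genes near 1 CPM, such as Thrsp in Het tumors, are measured least precisely.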
